A study of Homo sapiens with 8 samples.

Results

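MDA-MB-231 is a human breast cancer line, grown from cells of a pleural effusion and widely used as a model of triple-negative disease. Its untreated mRNA profile was set against 4 other carcinoma lines on 60-mer microarrays. The series held 8 two-colour arrays of 5 lines, and each array carried RNA of cells without transfection ("mock") in the Cy3 channel and RNA of the same line after transfection in the Cy5 channel. Only the Cy3 channel entered the comparison, so MDA-MB-231 was represented by 1 of the 8 mock samples. The 7 others came from PC3 (prostate cancer, 2 arrays whose Cy5 cells received si-PIR-2 or si-PIR-3), SK-MES-1 (lung squamous cell carcinoma, 2 arrays, miR-144-5p or miR-144-3p), SW1990 (pancreatic cancer, 1 array, miR-204-5p) and PANC1 (pancreatic cancer, 2 arrays, miR-130-5p or miR-130-3p). The Cy5 cells of the MDA-MB-231 array received miR-204-5p. All mock cells were kept in ordinary RPMI 1640 or DMEM, with no statement of which line had which medium, and no label says whether arrays of a line came from separate cultures. Each tissue was represented by 1 established line, apart from the pancreas with 2, so a difference between lines cannot be told apart from a difference between tissues of origin.

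A level below is the log2 of the Cy3 signal after background subtraction and quantile normalization. Arrays of a line were averaged first, and a probe was kept where it was well above background in MDA-MB-231 or on all 7 other arrays. This left 19713 of 43317 gene names, each read by its brightest kept probe. A gene was called higher where MDA-MB-231 lay at least 1 log2 unit above the highest of the 4 other line means, and lower where it lay at least 1 unit below the lowest. Because the filter admits a gene seen in MDA-MB-231 alone, such a gene had to come out high, and a gene seen in all other arrays but not in MDA-MB-231 had to come out low.

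Triple-negative breast cancer lacks the estrogen receptor (ESR1), the progesterone receptor (PGR) and amplified ERBB2, and lines of the mesenchymal-like group have lost much of the epithelial junction programme and carry vimentin instead. MDA-MB-231 is known for strong invasion and for sublines selected for bone or lung colonization. Growth signals through the RAS and MAP kinase cascade, and the co-activators YAP and TAZ with their TEAD partners, are much studied in it.

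By the array values, 713 genes were higher in MDA-MB-231, or 3.62% of those kept, and 418 were lower, or 2.12%. Of the calls 63.0% were higher, against 43.7% among the 15538 genes well above background on all 8 arrays, where 173 (1.11%) were higher and 223 (1.44%) lower. In the same genes the rule gave 265 higher (1.71%) and 210 lower (1.35%) for PC3 and 345 (2.22%) and 379 (2.44%) for SK-MES-1. It gave 351 (2.26%) and 375 (2.41%) for SW1990 and 395 (2.54%) and 323 (2.08%) for PANC1. By any margin, MDA-MB-231 was above every other line in 23% of all kept genes and below every line in 14.4%. The MDA-MB-231 profile was nearest to that of PC3, with an SD of the log2 differences between arrays of 0.923, then SW1990 with 0.970, while SK-MES-1 and PANC1 were close to each other at 1.03 and 1.04. Arrays of the same line differed far less, with an SD of 0.158 to 0.169. The median difference over all kept genes was 0.13.

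A test over genes was limited by the single array. Limma on the 5 line means, in which MDA-MB-231 was assumed to vary like the other lines, gave 21 higher genes (0.107%) and 15 lower genes (0.0761%) at an adjusted p under 0.05. Of these, 18 of the 21 had no other array well above background, and all 15 lower genes were not well above background in MDA-MB-231. No gene in either direction passed without background correction, among genes well above background on all arrays, or without any one of the 4 other lines, where limma gave 259 to 785 higher and 269 to 536 lower genes at an unadjusted p under 0.05. For a gene at the detection limit in MDA-MB-231, or on all other arrays, the filter fixed the direction, so such a gene is given below with a bound on its fold and no p. An exact permutation of 1 line against 4 cannot go below p = 0.2.

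The label was checked against marker genes. Of 10 breast markers, GATA3, TRPS1 and ESR1 were kept and none was called, while the secretoglobins SCGB2A2 and SCGB1D2, PIP and PGR did not reach the detection limit in any line. GATA3, the transcription factor of luminal cells, stood at 5.40 in MDA-MB-231 against 3.80 to 6.96 in the other lines. Summed over the 10 breast markers, the level was 6.90 against 6.54 to 8.83. These markers therefore did not set the breast line apart from the others. The 12 housekeeping genes had a median difference of 0.04 and none was called. Of 7 leukocyte markers on the array 3 were kept and none was called, and PTPRC (CD45) was at 3.26 against 2.64 to 3.95 on the other arrays. Summed melanocyte markers were highest in MDA-MB-231, at 9.51 against 6.48 to 9.06, with 3 of 7 kept and none called. The leukocyte sum was highest there too, as given below. Pancreas, prostate, squamous lung and endothelial sums lay within the range of the other lines, and the fibroblast sum lay below it.

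The 15 named genes furthest above the other lines were CDH4, CLIC6, CELF2, CT83, CMKLR1, GPR116 (now ADGRF5), APBB1IP, CHRDL1, CXCR4, TLR4, PAGE2, AIM2, PHYHD1, GPAT2 and ANGPTL2. CXCR4, the receptor of the chemokine CXCL12 that guides cells to bone and lymph node, was read by a probe at chr2:136871953-136872012 (hg19). It stood at 10.59 in MDA-MB-231, at 2.83 and 2.78 in PC3, 2.16 and 2.03 in SK-MES-1, 3.98 in SW1990 and 3.75 and 3.69 in PANC1. The breast line was apart from every other array. PC3, SW1990 and PANC1 measured the gene, on 5 arrays, and SK-MES-1 did not. Over the signals as they stood, those of SK-MES-1 included, the difference was 7.44 ± 0.83 (SE). CXCR4 was kept through MDA-MB-231 alone and picked by its margin, so its place above every other line was set in advance.

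CDH4, the retinal cadherin, was at 7.86 in MDA-MB-231 and at 0.00 to 0.09 on the other arrays, none of which was well above background. It was at least 92.4-fold higher. TLR4, the receptor of bacterial lipopolysaccharide, was at 8.39 against at most 2.02, at least 120-fold higher. AIM2, a sensor of cytosolic DNA, was at 7.91, and 1 of the 7 other arrays measured it, at 3.35. Both sensors of innate immunity were kept through MDA-MB-231 alone and picked by their margin, so their place above the other 4 lines was set in advance.

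GPAT2, a glycerol-3-phosphate acyltransferase otherwise seen in testis, was measured on all 8 arrays. Its level was 10.73 in MDA-MB-231, 4.27 and 4.02 in PC3, 4.29 and 4.16 in SK-MES-1, 4.62 in SW1990 and 4.35 and 4.29 in PANC1. The other lines lay close together, with an SD of 0.21 between them, and MDA-MB-231 was 84.6-fold above their mean (6.40 ± 0.41). GPAT2 was picked by its margin in these same values, so this distance is a description only. Its 2 other kept probes gave differences of 6.14 and 9.80.

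The 15 furthest below were HIST1H4E (now H4C5), CD109, FOCAD, PREX1, FKBP10, FOXD1, MGMT, SNURF, SLC19A1, NID1, KCNG1, CBS, KLHL9, FOXL1 and GJC1. HIST1H4E, a replication-dependent histone H4 gene with near-identical relatives, was at 0.00 in MDA-MB-231 and at 10.21 to 10.95 elsewhere, at least 472-fold lower. MGMT, the enzyme that removes alkyl groups from guanine, was at 0.00 against 7.78 to 9.24, at least 108-fold lower. SLC19A1, the reduced folate carrier that also takes up methotrexate, was at 0.00 against 7.34 to 8.72, at least 77.3-fold lower. All 3 were well above background on the 7 other arrays and not in the breast line.

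CBS, which starts the transsulfuration of homocysteine to cysteine, was at 0.66 in MDA-MB-231, 8.05 and 8.01 in PC3, 12.80 and 12.77 in SK-MES-1, 10.50 in SW1990 and 12.54 and 12.57 in PANC1. The other lines differed widely, yet the lowest of them lay far above the breast line. It was at least 622-fold lower.

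**Figure D1:**
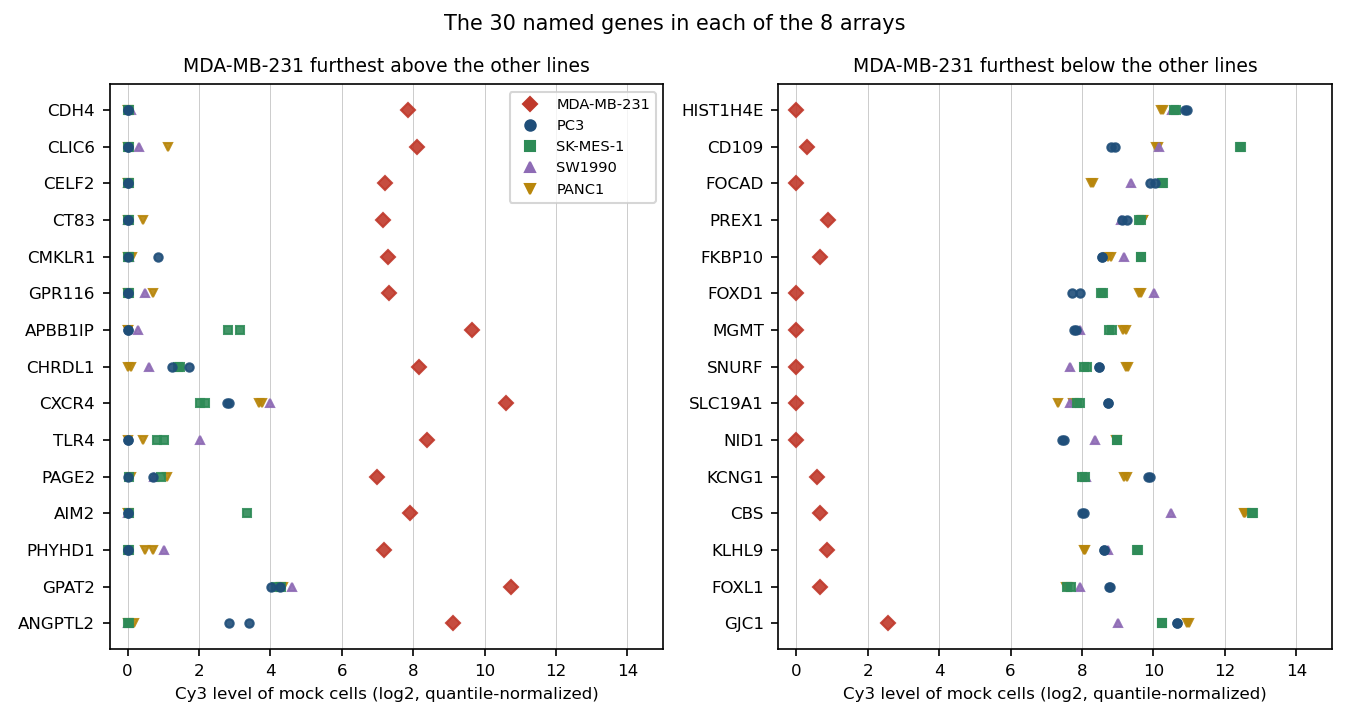
Cy3 level of mock cells (log2, horizontal axis) for the 30 named genes, 1 row a gene and 1 symbol an array. In the left panel the MDA-MB-231 array lies at 6.99 to 10.73 and to the right of every other array, and in the right panel at 0.00 to 2.57 and to the left of every other array.

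The 32 luminal genes did not set the line apart. Of the 20 kept none was called, and the median difference was 0.15 against 0.13 for all genes. Counts of called genes in this list and those below stand against 3.62% higher and 2.12% lower over all genes, so 1 call among 19 to 32 kept genes is near that background. PGR, ERBB4, PIP, SCGB2A2, SCGB1D2 and PRLR were not well above background on any array, and FOXA1, the pioneer factor of the luminal programme, was well above background on 5 of the 7 other arrays but not in MDA-MB-231. ESR1 was near the detection limit at 3.43, against 2.16 to 3.26. ERBB2 was at 8.33, above 6.48 and 6.52 in PANC1 and below 9.04 in SW1990. SPDEF, a luminal ETS factor, stood at 9.07 in MDA-MB-231, with 8.85 in PC3 and 8.71 in SW1990 close to it.

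Basal genes gave a mixed picture. Of 32 listed 20 were kept, with a median difference of 0.27, which was -0.28 over all 32 without the filter, and NGFR, the p75 neurotrophin receptor, was the 1 gene called. Its level was 6.37 in MDA-MB-231, and the 2 PANC1 arrays that also measured it gave 3.66 and 3.23. The basal keratins KRT5, KRT6A, KRT6B, KRT14 and KRT16 and the basal factor TP63 were not well above background in the breast line. EGFR was at 8.31, against 7.42 to 8.12.

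Of 35 epithelial junction genes 25 were kept in MDA-MB-231, and 3 of them were called lower. Their median difference was -1.02, against 0.13 for all genes, which was less than the SD of 1.26 between the medians of the other lines. Of the kept genes 19 lay below the mean of the other lines, 8 of the 25 below every line (14.4% of all genes did). A further 10 genes were not well above background in MDA-MB-231, among them the splicing regulator ESRP1, the transcription factors GRHL2, OVOL1 and OVOL2, and CDH3 (P-cadherin). The median rested in part on SW1990, in which all 35 listed genes were well above background, and was -0.37 without it. PC3 had 28 of the 35 well above background, SK-MES-1 23 and PANC1 19, so fewer were measured in the latter pair than in the breast line.

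CLDN3, a sealing claudin of tight junctions, was at 5.91 in MDA-MB-231, 10.85 and 10.76 in PC3, 7.48 and 7.49 in SK-MES-1, 7.11 in SW1990 and 7.95 and 7.86 in PANC1. All 7 other arrays were higher, and the fold was 5.34 (limma adjusted p = 0.998). CDS1, a CDP-diacylglycerol synthase, and MARVELD2 (tricellulin) were the other genes called lower, so 3 of 25 were lower against 2.12% of all genes. None of the 3 kept its call with the normexp background correction or in the transfected cells of the same arrays. CDH1 (E-cadherin) was at 3.46, within a range from 0.50 in SK-MES-1 to 10.01 in SW1990, so low E-cadherin did not separate MDA-MB-231 from SK-MES-1 and PANC1.

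Some other epithelial genes lay within or above the range of the other lines. Among the 25 kept, 8 lay below every line (14.4% of all genes did), of which 3 passed the margin. AP1M2, an adaptor subunit for sorting to the basolateral membrane, was at 7.78, above 7.31 in SW1990 and 2.87 in PC3 and SK-MES-1. DSP (desmoplakin) was at 10.39 against 5.09 to 10.05. EPCAM was at 7.71, lower than in PC3, SK-MES-1 and SW1990 and above 7.03 in PANC1.

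The median difference of the 32 kept mesenchymal genes was 1.03, with 26 above the mean of the other lines and 12 of the 32 above every line (23% of all genes were). Of these, ZEB2 and TIMP1 passed the margin, 2 of 32 against 3.62% of all genes. ZEB2, a repressor of E-cadherin, was at 4.03 by its brightest kept probe, with which 1 other array was well above background, at 2.58. TIMP1, the metalloproteinase inhibitor, stood at 11.10 in MDA-MB-231, 9.97 and 10.05 in PC3, 9.94 and 10.09 in SK-MES-1, 8.81 in SW1990 and 9.58 and 9.51 in PANC1. The breast line was above all 7 arrays by 2.84-fold on average, with a limma adjusted p of 0.96.

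VIM (vimentin) was among the brightest signals in each line, at 14.57 in MDA-MB-231 and 13.50 to 14.70 in the others, and did not set it apart. ZEB1 was at 9.79 against 8.38 to 9.16, AXL, a receptor tyrosine kinase, at 12.32 against 10.61 to 11.51, and LOXL2, a collagen cross-linking oxidase, at 11.49 against 9.29 to 10.54. All 3 were above every other line by less than the margin of 1. Below the mean of the other lines lay 6 of the 32 kept genes, and 2 lay below every line (14.4% of all genes did). CDH2 (N-cadherin) was the 1 gene called lower. Its level was 3.40 in MDA-MB-231, 9.76 and 9.81 in PC3, 10.46 in both SK-MES-1 arrays, 7.33 in SW1990 and 5.62 and 5.81 in PANC1. It was lower than on every other array, 30.4-fold below the mean of the lines (limma adjusted p = 0.942). TWIST1, TWIST2, SPARC and FBN1 were not well above background in MDA-MB-231.

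**Figure D2:**
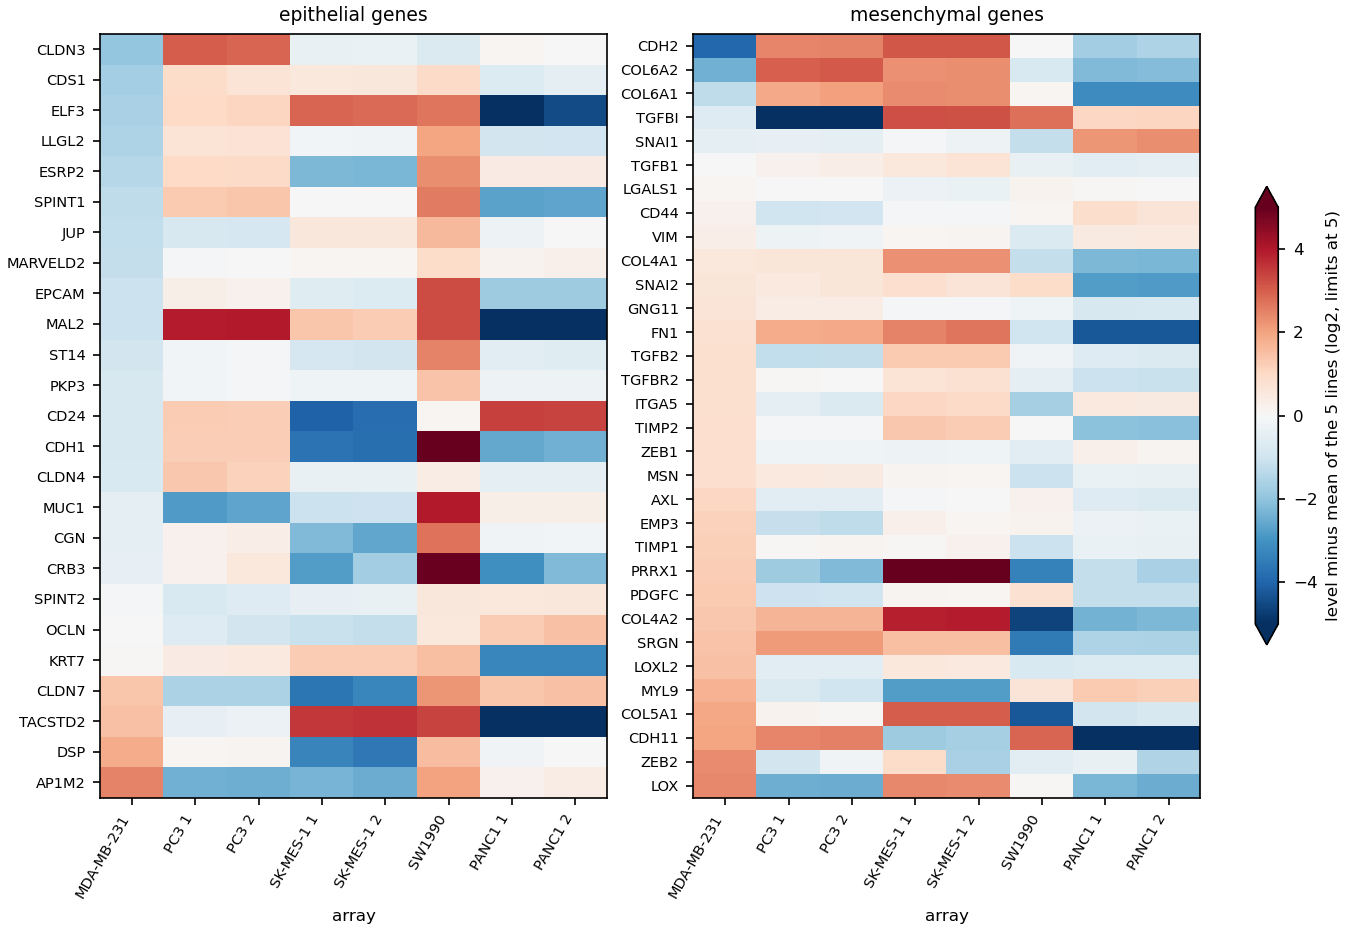
Level of each kept epithelial gene (left) and mesenchymal gene (right) minus the mean of the 5 lines (log2, colour), with 1 column for each of the 8 mock arrays. The MDA-MB-231 column is mostly blue among the epithelial genes and mostly red among the mesenchymal genes, with CDH2 blue at the top of the right panel.

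The metastasis-linked list holds genes selected in earlier work in sublines of MDA-MB-231 itself, so it is not independent of the line. Of its 29 genes 24 were kept, with a median difference of 1.63. The median was 0.27 with the normexp background correction, 0.38 with loess and 0.53 without background correction. Of the 24, 3 were higher and 2 lower, against 3.62% and 2.12% of all genes. Beside CXCR4 these were MMP1 and IL11, and PTHLH and FSCN1. MMP1, interstitial collagenase, was at 11.86 in MDA-MB-231, 9.18 and 9.17 in PC3, 3.03 and 3.25 in SK-MES-1, 8.13 in SW1990 and 6.60 and 6.61 in PANC1. It was above every array and 34.3-fold above the mean of the lines, though the others spread over 6 log2 units and the limma adjusted p was 0.998.

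IL11, a gp130 cytokine linked to bone resorption, was at 9.88 in MDA-MB-231, 6.53 and 6.60 in PC3, 4.92 and 4.84 in SK-MES-1, 7.31 in SW1990 and 6.37 and 6.34 in PANC1. The groups did not overlap, and the difference was 12.2-fold (3.61 ± 0.95, limma adjusted p = 0.548). PTHLH, the parathyroid hormone-related protein of bone metastasis, went the other way: it was not well above background in MDA-MB-231 at 1.73 and lay between 4.65 and 7.28 elsewhere, at least 22.2-fold lower. FSCN1 (fascin), an actin-bundling protein of invasive protrusions, was at 11.47 against 12.84 to 13.35. PTHLH was well above background on all 7 other arrays and not in MDA-MB-231, so it had to come out low. FSCN1, detected in every line, was thus the 1 called lower without that limit. VCAM1 was not well above background on any array, and SPARC, MMP2, IL13RA2 and SPP1 not in MDA-MB-231.

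Cytokine and NF-kB genes had a median difference of -0.32 over 23 kept genes, which was 0.02 without SW1990. The 1 gene called was CSF3 (granulocyte colony-stimulating factor), dim at 4.12 and measured on 1 other array. IL6 was at 7.42, near 7.66 in SW1990. IL1B was at 4.01, against 10.38 in PC3 and 10.54 in SW1990, and CXCL5, a neutrophil chemokine, at 4.78, below all others at 5.76 to 11.35.

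Output genes of the MAP kinase cascade, all 24 kept, had a median difference of 0.72. DUSP6, the phosphatase that ERK induces against itself, was the 1 gene called. It stood at 12.15 in MDA-MB-231, 10.47 and 10.46 in PC3, 7.24 and 7.29 in SK-MES-1, 9.74 in SW1990 and 8.89 and 8.75 in PANC1. The order of the lines was MDA-MB-231, PC3, SW1990, PANC1 and SK-MES-1, with each step larger than the gap between arrays of a line. The difference was 8.41-fold (limma adjusted p = 0.958). DUSP4, a related phosphatase, was as high in SW1990 (10.93) as in MDA-MB-231 (10.91). SPRY1, a feedback inhibitor, was at 8.92, above 8.61 in PC3. The median was 0.35 without SK-MES-1.

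Targets of YAP and TEAD held 1 call among 24 kept genes, near the share over all genes. Of the 24, 21 lay above the mean of the other lines, 8 above every line (23% of all genes did) and none below every line (14.4% of all genes did), with a median difference of 0.85. ANKRD1, a muscle ankyrin repeat protein induced by YAP, was at 10.76 in MDA-MB-231, 0.00 and 0.01 in PC3, 6.24 and 6.27 in SK-MES-1, 8.56 in SW1990 and 2.80 and 0.08 in PANC1. It was the 1 gene past the margin, and 4 of the 7 other arrays measured it. CTGF (now CCN2), a matricellular protein, was at 9.72, against 7.03 and 7.01 in PC3, 7.08 on both SK-MES-1 arrays, 6.59 in SW1990 and 8.70 and 8.76 in PANC1. This was above every array but just short of the margin. CYR61 (now CCN1) was at 13.78 against 10.90 to 13.54.

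CTGF and ANKRD1 are shown here with the TEAD letters of their promoters, since both are textbook targets. Within the RefSeq window from 250 bases before to 50 after the start site (GRCh38.p14), the motif GGAATG on either strand was found in 10 of 22 listed promoters (45.5%), against 14.0% of 35116 windows. The list was made of YAP and TEAD targets, so a high share was built in and says nothing about MDA-MB-231. The share was 13.8% for the metastasis-linked list and 12% for the MAP kinase list. The lines below give 30 bases each, 5′ to 3′ on the gene's strand, with the motif in capitals.
CCN2, chr6:131951524-131951553, minus strand: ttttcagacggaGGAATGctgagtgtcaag
CCN2, chr6:131951459-131951488, minus strand: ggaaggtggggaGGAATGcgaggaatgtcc
CCN2, chr6:131951450-131951479, minus strand: ggaggaatgcgaGGAATGtccctgtttgtg
ANKRD1, chr10:90921290-90921319, minus strand: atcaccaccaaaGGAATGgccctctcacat
ANKRD1, chr10:90921198-90921227, minus strand: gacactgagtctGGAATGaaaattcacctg

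The CCN2 motifs begin at -169, -104 and -95 from the start site, the last pair overlapping in the printed stretch, and those of ANKRD1 at -220 and -128. The AP-1 motif TGANTCA, which FOS and JUN bind, occurred in 7.71% of all windows and in 2 of the 22. Its share was 6.90% for the metastasis-linked list, which holds IL11, and 4% for the MAP kinase list. The AP-1 motif was thus no more common in the latter pair of lists than over all windows. It is shown for ANKRD1 and for IL11, the cytokine above, at -195 and -96.
ANKRD1, chr10:90921264-90921293, minus strand: acatttcttccTGATTCAcatattcagcag
IL11, chr19:55370541-55370570, minus strand: ggcagggagggTGAGTCAggatgtgtcagg
These are matches of letters, and binding was not measured.

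Proteases and coagulation genes had a median difference of 0.37 over 21 kept genes, with MMP1 the 1 called. F3, the tissue factor that starts coagulation, was at 11.64 in MDA-MB-231 and 12.43 in SW1990, far above 3.72 in PC3, 3.94 in PANC1 and 7.31 in SK-MES-1. PLAT, the tissue plasminogen activator, was at 12.19 against 1.40 in PANC1 to 11.95 in SK-MES-1. PLAU, its urokinase relative, differed little, at 12.94 against 11.69 to 13.38. SERPINB5 (maspin) was at 4.03, against 10.67 in PC3, 9.01 in SK-MES-1 and 10.17 in SW1990, and 0.21 in PANC1.

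Nuclear receptors centred near the other genes, with a median difference of 0.20 over 20 kept. Of these 2 were called higher, against 3.62% of all genes, and both fell short of the margin with the normexp background correction. RXRB, a common partner of other receptors, was at 7.83 in MDA-MB-231, 6.56 and 6.69 in PC3, 6.30 and 6.46 in SK-MES-1, 6.22 in SW1990 and 6.56 and 6.54 in PANC1. NR2F2 (COUP-TFII) was at 11.40 against 9.55 to 10.38. NR3C1, the glucocorticoid receptor, was at 10.87, close to 10.73 in SK-MES-1. PGR, ESR2 and 7 other listed receptors were not well above background on any array.

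Genes of antigen presentation and immune checkpoints had a median difference of 1.33 over 19 kept, less than the SD of 1.45 between the medians of the other lines, with 17 above the mean of the other lines. The class II genes HLA-DMB, which loads peptide, and HLA-DPA1, a class II chain, were called higher. HLA-DMB was at 8.04, with 6.38 in SW1990 and at most 2.81 on the other arrays, and HLA-DPA1 at 8.13 with 6.29 in SW1990 and at most 4.59 elsewhere. CIITA, the master activator of class II, was at 6.36 in MDA-MB-231 and 6.13 in SW1990, and at most 2.08 in the other lines. High class II levels were thus shared with SW1990, and HLA-DRA was higher there (8.83) than in MDA-MB-231 (7.43). CD274 (PD-L1) was likewise at 5.99 and 6.13 in the pair. The stress ligands MICA and MICB, at 11.20 and 10.91, were above every other line. HLA genes have close relatives, so a probe may read more than one. The summed leukocyte markers were also highest in the breast line, at 7.31 against 5.83 to 6.65, through CD14 at 6.89 against 3.85 to 6.06, while PTPRC was not raised. Their part in the result was not tested.

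**Figure D3:**
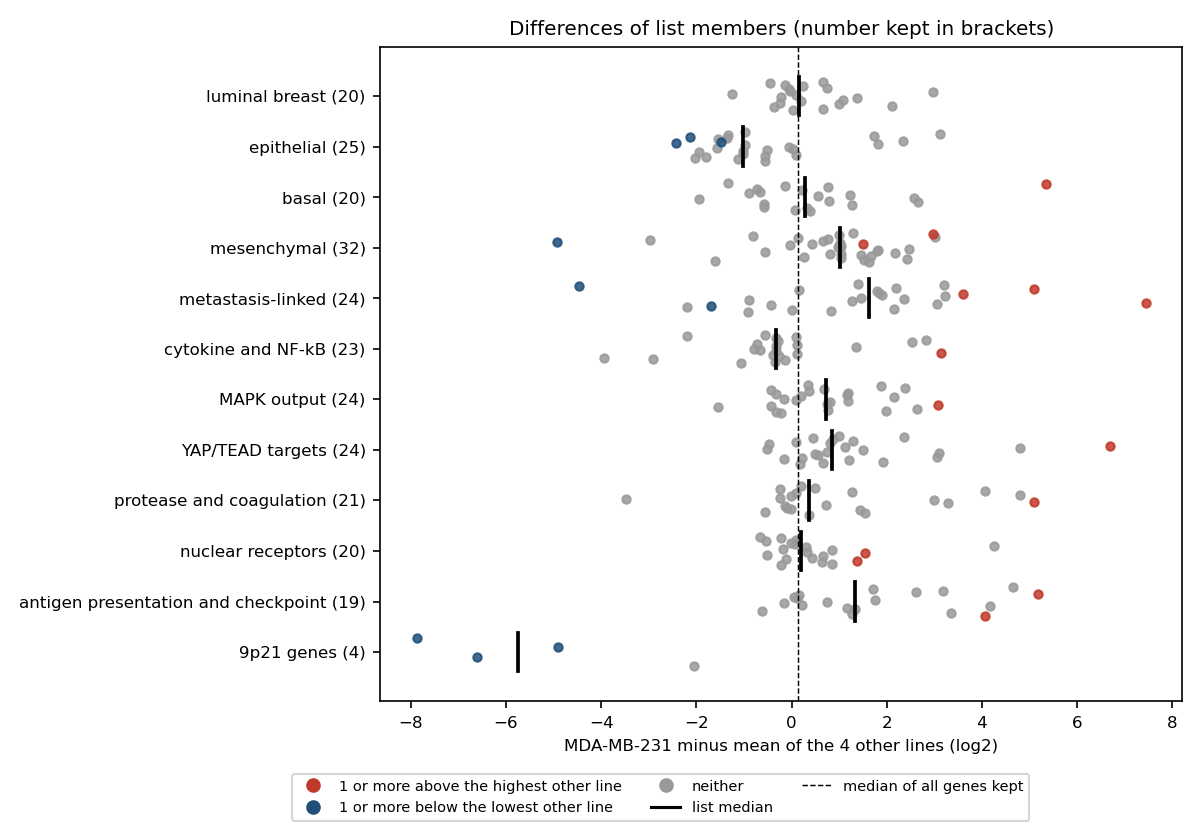
MDA-MB-231 minus the mean of the 4 other lines (log2, horizontal axis) for the kept members of 12 gene lists, 1 point a gene, with the list median as a black bar and the median of all genes, 0.13, as a dashed line. Medians lie between -1.02 and 1.63 for 11 lists and at -5.75 for the 4 kept genes at 9p21, and called genes are coloured.

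The 9p21 genes were the exception in size. Of 9 listed genes on the array 4 were kept, and all 4 lay below every other line (14.4% of all genes did). The 3 called lower, against 2.12% of all genes, were MTAP, KLHL9 and IFNE. These 3 were not well above background in MDA-MB-231 and so had to come out low. The median difference was -5.75 over the 4 kept genes and -2.11 over all 9 without the filter. MTAP, which salvages methionine from methylthioadenosine, was read by a probe at chr9:21802766-21815476 (hg19) and stood at 0.00 in MDA-MB-231, 6.39 and 6.56 in PC3, 6.29 and 6.49 in SK-MES-1, 6.81 in SW1990 and 6.79 and 6.66 in PANC1. It was at least 30.2-fold lower. The 2 other MTAP probes, which lie further along the gene, were at 0.00 and 0.45 in MDA-MB-231 and also at the floor in PANC1, at 0.20 and 0.32, while PC3, SK-MES-1 and SW1990 gave 6.66 to 8.89. So the first MTAP probe was at the floor in the breast line alone, and the others in PANC1 too.

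KLHL9, a substrate adaptor of a CUL3 ubiquitin ligase used in mitosis, lay about 0.5 Mb before MTAP at chr9:21331101-21331160 and was at 0.87, against 8.07 to 9.55 (at least 134-fold lower). FOCAD, a gene of focal adhesions outside the list, was at 0.00 against 8.24 to 10.27 (at least 220-fold lower). IFNE, an epithelial interferon, was at 0.00 against 3.45 to 6.11, and a probe of MIR31HG, the host transcript of miR-31, at 0.00 against 6.22 to 8.89. FOCAD and this MIR31HG probe, both outside the list, were well above background only on the 7 other arrays. Both had to come out low. A second MIR31HG probe was at 2.92 against 5.02 to 8.11. CDKN2A, which encodes p16INK4A and p14ARF, was at 5.37 against 6.10 to 11.04 by one probe. By the other it was well above background only on the 2 PC3 arrays, at 9.14 as their mean, and not in MDA-MB-231, SK-MES-1, SW1990 or PANC1.

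Genes before FOCAD did not share this. RRAGA, HAUS6, PLIN2, DENND4C and RPS6, between chr9:19050839 and chr9:19379001, were each in the range of the other lines or less than 1 unit above it. MLLT3, nearer to FOCAD, was called higher at 5.29 against 2.26 to 3.79. FOCAD-AS1, antisense to the far end of FOCAD, was not called, at 4.05 against 1.69 to 3.80. Within the window, probes for transcripts named only XLOC_l2_014720 and DA734158 were at 12.30 and 4.52 in MDA-MB-231, at or above the other lines. IFNA4, which lies between FOCAD and KLHL9, was dim in every line and not called, at 2.47 against 3.03 to 3.57. It was not well above background in mock MDA-MB-231 cells but was in the transfected ones. Beyond MTAP, the probes of CDKN2B, CDKN2B-AS1, DMRTA1 and ELAVL2 were not well above background in MDA-MB-231, at 0.00 to 0.58. Each of these probes was also under 1 in at least 1 other line, although DMRTA1 stood at 4.48 in PC3 and 3.62 in PANC1. DNA copy number was not measured.

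A second such stretch, singled out after its values were seen, lay at chr15:25207266-25365475 (hg19). There 8 neighbouring kept gene names were all lower (2.12% of all genes were), the longest run of neighbours with the same call. The stretch held SNURF and SNRPN, which share a transcript from the imprinted Prader-Willi region of the paternal chromosome. It also held PWARSN, SNORD64, lnc-SNURF-1, ENST00000552334, SNORD116-19 and IPW. None of the 8 was well above background in MDA-MB-231 and all were on the 7 other arrays, so each had to come out low. Several may be parts of shared transcripts, so they are not 8 separate results. SNURF was at 0.00 in MDA-MB-231, 8.48 and 8.49 in PC3, 8.13 and 8.07 in SK-MES-1, 7.67 in SW1990 and 9.23 and 9.27 in PANC1, at least 103-fold lower. SNRPN was at 0.00 against 6.37 to 8.31. UBE3A, the ubiquitin ligase that lies beyond and is not imprinted outside neurons, was at 7.72, within 7.23 to 7.93 of the other lines. ATP10A, a lipid flippase further on, was at 8.32, and the PC3 arrays, the only others that measured it, gave 4.43 and 4.50. MKRN3, an imprinted gene before the stretch, was at 3.39, within 0.00 to 5.86.

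**Figure D4:**
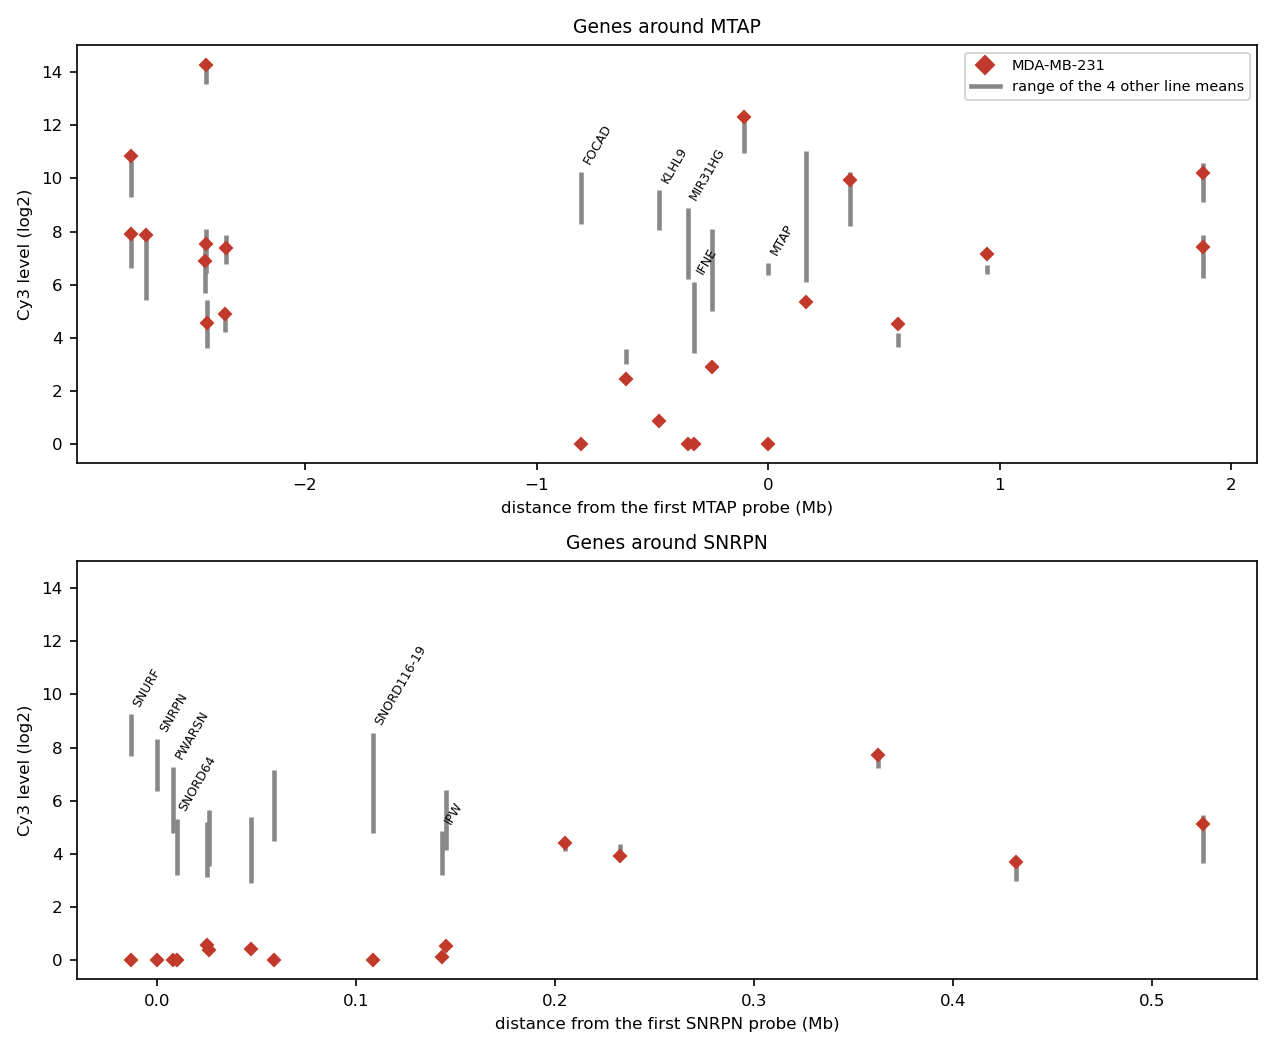
Cy3 level (log2, vertical axis) of probes well above background on all 7 other arrays against distance (Mb) from the first MTAP probe (top) and the first SNRPN probe (bottom), with MDA-MB-231 as red diamonds and the range of the 4 other line means as grey bars. From FOCAD to MTAP the labelled probes, and from SNURF to IPW all probes shown, are at 0.00 to 0.87 in MDA-MB-231, and the other probes lie in or near the grey bars, apart from a second MIR31HG probe at 2.92.

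NF2 (merlin), the tumour suppressor upstream of the Hippo kinases that hold YAP back, was also singled out after its values were seen. It stood at 8.38 in MDA-MB-231, 12.35 and 12.49 in PC3, 10.93 and 10.86 in SK-MES-1, 12.17 in SW1990 and 12.30 and 12.22 in PANC1. The breast line was below all 7 arrays, 11.8-fold below the mean (-3.56 ± 0.71, limma adjusted p = 0.291), and the second NF2 probe differed by -3.97.

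Among genes well above background on all 8 arrays, folds do not rest on the floor. The 10 with the largest margin above, again chosen after their values were seen, were GPAT2, LHFPL4, HIST1H2AA, ENPP1, MMP1, RASD1, IL11, CENPI, PGF and RFTN1. ENPP1, the ectoenzyme that makes pyrophosphate and degrades extracellular cGAMP, was at 11.89 against 8.12 and 8.15 in PC3, 7.77 and 7.70 in SK-MES-1, 3.79 in SW1990 and 7.40 and 7.23 in PANC1. It was 35.4-fold above the mean, and its second probe differed by 4.22. PGF, placental growth factor, was at 8.79 against 3.51 to 6.30. CENPI is less certain, since its 2 other probes differed by 0.42 and 0.39, and RASD1 was not called in the transfected cells.

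The 10 furthest below were CRIP1, ARSA, HOXB6, KCNJ18, ID2, PHGDH, GNAZ, LEPREL2 (now P3H3), LAMP3 and IGF2. CRIP1, a small LIM-domain protein, was at 4.81 in MDA-MB-231, 10.78 and 10.73 in PC3, 12.39 on both SK-MES-1 arrays, 13.69 in SW1990 and 13.37 and 13.41 in PANC1, which made it 215-fold lower (limma adjusted p = 0.15). PHGDH, the first enzyme of serine synthesis, was at 5.40 against 9.42 and 9.49 in PC3, 11.03 on both SK-MES-1 arrays, 9.36 in SW1990 and 11.19 and 11.22 in PANC1, at a difference of -4.86. ID2, an inhibitor of basic helix-loop-helix factors, was at 4.13 against 8.10 to 10.14, and its second probe differed by -4.39. All 3 were clear of every other array.

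The Cy5 channel of the same arrays gave a second reading of each line, although after transfection and with the other dye. Of the 713 higher genes 544 (76.3%) were called higher there, and of the 418 lower genes 296 (70.8%) were called lower. No gene had the opposite call, and 3 of the higher genes had a difference of the opposite sign. CXCR4, MMP1, IL11, DUSP6, ANKRD1, CDH2, MTAP, SNURF and NF2 kept their calls. With the normexp background correction ZEB2, CDH2, PTHLH, CSF3, RXRB, NR2F2 and IFNE fell short of the margin, and CSF3 and NR2F2 did so in Cy5 too. Cy5 and Cy3 cells of an array were hybridized together, so this is no separate sample of MDA-MB-231.

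**Figure D5:**
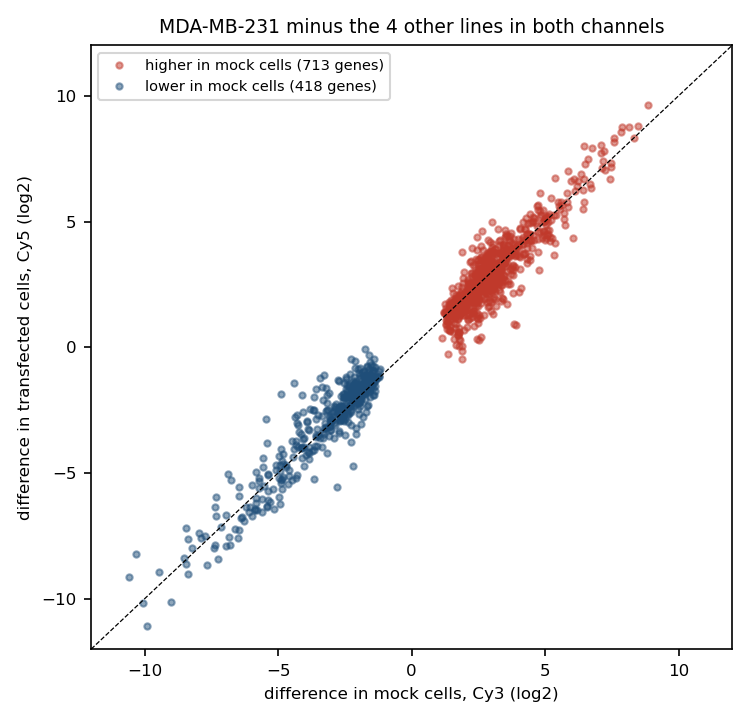
MDA-MB-231 minus the mean of the 4 other lines (log2) for the 713 higher (red) and 418 lower (blue) genes, in mock cells (Cy3, horizontal axis) and in transfected cells (Cy5, vertical axis), with the dashed line marking equal values. Apart from 3 red points just under 0, points lie on the same side of 0 in both channels.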

How the data were processed

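The authors deposited 8 two-colour Agilent arrays as Feature Extraction 11.5.1.1 output (intensity columns per spot, probe positions on hg19), with Cy3 marking mock RNA, Cy5 marking transfected RNA and no dye swap. Per the file headers the Cy3 intensity had not been normalized between arrays. Of 62976 spots 60901 were no controls, giving 58201 probes. Here the background median was subtracted from the mean Cy3 intensity, floored at 1, put on the log2 scale and quantile-normalized over the 8 arrays (R 4.3.3, limma 3.58.1). Outlier spots (95 to 117 an array) were left out, no spot was saturated, and 41.4% to 46.4% of probes were well above background. The number of arrays limits the precision.

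Named genes were the 15 protein-coding genes with the largest margin on each side whose kept probes all moved the same way, without XIST and chromosome Y, and the members of the lists. Of the kept genes 14951 matched the RefSeq table. Members and lists were chosen with earlier results of these data known. Replicate numbers follow accession order. "At least" folds set the brighter mean against the dimmest signal well above background, or the dim probe's own signal where higher. That dimmest signal was at 0.01 on 1 PC3 array and 0.03 on 1 SK-MES-1 array, against 1.44 to 1.92 on the others. "At least" folds of higher genes thus rest in part on the floor. Some probes above 1.69 in MDA-MB-231, its dimmest such signal, were not well above background, as HOXB3 at 2.36. These folds are therefore approximate bounds. Where no label names separate cultures, p-values measure the spread between these lines (3 residual and 2.03 prior degrees of freedom, Benjamini-Hochberg adjusted), which may be technical in part. All 8 arrays were on 1 slide and 1 scan, so no block was run. The fit was tested on simulated data. Alternatives were other background corrections, scalings, filters, margins, the Cy5 channel, and leaving out each array or line.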

Additional observations from a re-analysis of the deposited data

How the results depend on the processing

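The direction of every named gene's call was kept under all 21 settings tried: of 6330 values for 306 genes 6209 kept their side of the margin, 85 newly passed it, 36 no longer did and none turned. The 30 named genes at the ends of the ranking kept their calls wherever they had a value. The counts moved with the handling of dim signal. Higher and lower counts were 190 and 102 with normexp, 281 and 183 without background correction, 214 and 113 with loess and Aquantile, 441 and 273 with a floor of 10, 1352 and 717 without a filter, 176 and 224 with all arrays well above background, 4525 and 2833 with no margin and 289 and 164 with a margin of 2. Leaving out 1 array at a time gave 702 to 1091 higher and 418 to 710 lower, the upper ends without SW1990, which has 1 array.

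Limma counts (higher and lower) were 12 and 0 with normexp, 0 and 0 without background correction, 5 and 3 with median centring, 12 and 0 with loess and Aquantile, 136 and 7 with a floor of 10, 33 and 4 without a filter, 0 and 0 with all arrays well above background, 8 and 4 in the transfected channel, 175 and 92 with arrays not averaged, 11 and 5 with an intensity trend and 63 and 55 with the line as a random block. They were 0 and 0 without PC3, SK-MES-1 or PANC1, and with 1 array left out at a time 0 to 23 and 0 to 15, the zeros without SW1990. At an unadjusted p under 0.05 limma gave 648 and 406 in the reported fit, 712 and 312 without background correction, 259 and 269 with all arrays well above background, and 785 and 536 without SW1990. Without PC3 these were 650 and 434, without SK-MES-1 707 and 421 and without PANC1 624 and 452, and with normexp 281 were lower and with loess 285.

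List medians were within 1 SD of the line medians in 240 of 251 cases. The metastasis-linked median was 0.27 with normexp, 0.53 without background correction and 0.38 with loess. The 9p21 median was -1.46, -2.09 and -1.62 there, -2.66 with a floor of 10, -2.11 without a filter, -6.31 in the transfected channel and -6.66 without PANC1, and the MAP kinase median 0.35 without SK-MES-1. With 1 array left out at a time the medians lay at 0.10 to 0.44 (luminal), -1.03 to -0.37 (epithelial), 0.23 to 0.49 (basal), 0.77 to 1.04 (mesenchymal), 1.41 to 1.63 (metastasis-linked), -0.33 to 0.02 (cytokine), 0.70 to 0.80 (MAP kinase), 0.84 to 1.09 (YAP), 0.31 to 0.39 (protease), 0.20 to 0.32 (receptors), 1.32 to 1.59 (antigen presentation) and -5.77 to -5.52 (9p21). Beyond fewer samples or genes where these were left out, the cause was not tested. A slide or scan block was not run, since all 8 arrays share both. No paired analysis was possible because replicate numbers only follow accession order and MDA-MB-231 has 1 array. Fold sizes of genes near the detection limit depend on the floor.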

Other observations

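The gene families below were chosen after their values were seen, so their counts are descriptions only. Over all genes 3.62% were called higher and 2.12% lower. Among HOX genes, which record position along the body axis, 2 of 5 kept HOXA genes (HOXA3 and HOXA6) and 3 of 6 kept HOXB genes (HOXB2, HOXB5 and HOXB6) were called lower. HOXA3, HOXA6, HOXB2 and HOXB5 were not well above background in MDA-MB-231 and so had to come out low. HOXA9, HOXA10, HOXA13, HOXB3, HOXB4 and HOXB9 were not called, and HOXB9 stood at 9.34, above the mean of the other lines. HOXB6 was at 4.42 in MDA-MB-231, 8.79 and 8.94 in PC3, 9.10 and 9.03 in SK-MES-1, 8.91 in SW1990 and 12.07 and 12.03 in PANC1. None of 4 kept HOXC genes was called, and HOXD1 was higher at 6.24, with 1 other array measuring it.

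Cystatins, inhibitors of cysteine proteases, had 9 members on the array and 6 kept, of which 5 were called higher. CST1, CST2 and CST7 passed the filter through MDA-MB-231 alone, while CST3 and CST5 were well above background on every array. CST7 was not called in the transfected cells. CST1 was at 9.73 in MDA-MB-231, with 5.20 and 5.27 in SK-MES-1, the only others well above background. CST3 (cystatin C) was at 11.79, against 9.31 to 10.36 on the other arrays. CST1 and CST2 are closely related, so a probe may read both. Of 19 kept cancer-testis genes, silent in most adult tissues outside the germ line, 7 were called higher, namely CT83, MAGEC1, MAGEC2, PAGE2, PAGE2B, SSX1 and SSX4B. None of the 7 was well above background on any other array, so each passed the filter through MDA-MB-231 alone and had to come out high. MAGEC1 was at 6.67 against at most 2.21, at least 28.9-fold higher. Other members were far higher in SK-MES-1, with CTAG1A at 13.10 there against 4.42 in MDA-MB-231, MAGEA2B at 12.42 against 7.12, MAGEA6 at 13.17 against 7.07 and CTAG2 at 11.56 against 4.56. XAGE1B was at 14.01 in SK-MES-1 and 14.02 in MDA-MB-231.

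Runs of at least 3 neighbouring kept genes with the same call numbered 15. After the 15q11 run the longest was of 5 higher gene names at MAGI1, a scaffold of tight junctions, at chr3:65346921-65994640 (hg19). These include MAGI1-IT1, a transcript named after MAGI1, so they may not be 5 separate genes.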
